A study of Mus musculus with 31 samples.

Results

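Nucleolar ribosome assembly factors are the proteins that make ribosomal RNA (rRNA) and fold, cut, modify and pack it into the precursors of the small (40S) and large (60S) ribosomal subunits. They were taken by gene name from a list of 60 mouse symbols sorted into 8 roles. Of the 60, 59 had a row in both deposited tables, out of 41255 gene symbols, and Riok2 was not analysed here. The question was whether their mRNAs differed between cells with mutant and with wild-type RPL10 at the level of total mRNA, of polysomal RNA and of the ratio between them.

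The libraries came from Ba/F3 cells, a mouse lymphoid line that grows on interleukin 3 (IL-3). In every line the endogenous mouse Rpl10 was lowered by a short hairpin RNA, and human RPL10, either wild type (RPL10 WT) or with the R98S mutation (RPL10 R98S), was expressed from a retrovirus. RPL10 is a 60S protein that joins the maturing subunit in the cytoplasm, and R98S is a mutation found in T cell acute lymphoblastic leukemia. Each genotype was represented by 3 monoclonal lines, R98S11, R98S13 and R98S35 against WT28, WT29 and WT36, each grown under replicate numbers 1 to 3, so clone and genotype are nested. Total mRNA was measured in 9 R98S and 8 WT libraries, and polysomal RNA, the mRNA in sucrose gradient fractions holding at least 2 ribosomes, in 8 R98S and 6 WT libraries. A per-culture ratio could be formed for 14 cultures, 8 R98S and 6 WT. The polysomal libraries of R98S13 numbers 1 and 2 were nearly alike, so these 2 cultures are not clearly independent in polysomal RNA and in the ratio. The study left out the number 1 total library of WT36 because its profile grouped with the mutant lines, so the WT libraries analysed were partly chosen by their expression.

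Ribosome assembly starts with RNA polymerase I, which transcribes the large rRNA precursor in the nucleolus. The small subunit processome assembles on the growing transcript, small nucleolar ribonucleoproteins of the box C/D and H/ACA classes methylate and pseudouridylate it, and after cleavage the pre-40S and pre-60S particles mature separately. The genes of this program are known as targets of MYC in growing cells.

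Recovered read totals were 11471068 to 22059792 in R98S and 9338671 to 17827021 in WT total mRNA libraries, and 8831180 to 20754046 and 13436103 to 20353757 in the polysomal libraries. Endogenous Rpl10, which the hairpin targets in both genotypes and which therefore does not check the genotype, had a median of 1222 normalised reads in R98S and 1352 in WT total mRNA, and of 1117 and 2719 in polysomal RNA, with overlapping ranges in both. Of 10 B lymphoid marker genes only Cd79a and Cd79b had a mean of at least 10 normalised reads, while all 3 IL-3 receptor chains were expressed, with summed levels of 104846 to 217687 in R98S and 52035 to 92520 in WT total mRNA. None of 4 stromal markers reached a mean of 10. Of 5 erythroid markers Hba-a1 and Klf1 did so in both genotypes, with sums over the 5 of 215 to 1103 in R98S and 500 to 2288 in WT total mRNA. Myeloid markers (Mpo in R98S, Lyz2 and Mpo in WT) and T cell markers (Cd3d in R98S, Cd3d and Cd3g in WT) summed to at most 411 in any total library, and the part of such genes in the results was not tested. Polysomal libraries of number 3 had a different composition from those of numbers 1 and 2: the median cytosolic ribosomal protein gene lay above its mean over all cultures in each number 3 polysomal library (0.56 to 1.03 on the log2 scale) and below it in each of numbers 1 and 2 (-0.87 to -0.16). Because of such differences, values are given below also within replicate numbers and from a fit with the number as a block.

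**Figure D1:**
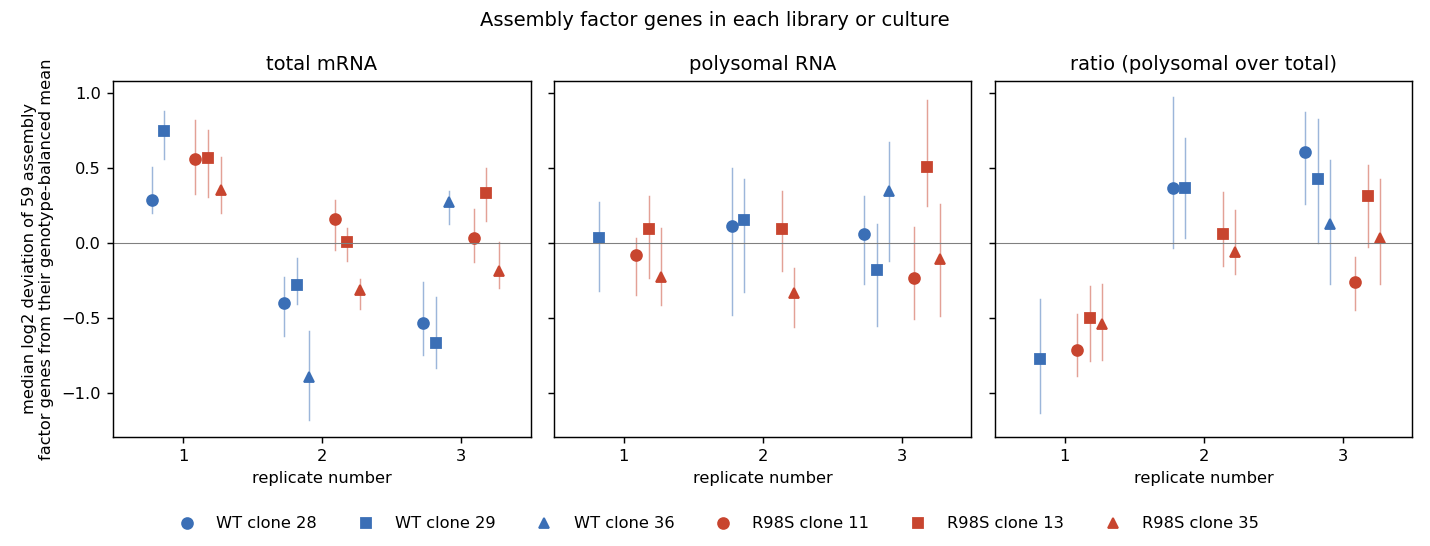
Median log2 deviation of the 59 assembly factor genes from their genotype-balanced mean in each library or culture (y axis) by replicate number (x axis), for total mRNA, polysomal RNA and the per-culture ratio, with symbols for clones and thin lines for the quartiles over genes. The WT29 culture of number 1 was at 0.74 in total mRNA and at -0.77 in the ratio, beside R98S cultures of the same number at 0.35 to 0.56 and -0.71 to -0.50.

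In total mRNA, most assembly factor genes had a positive log2 fold change of RPL10 R98S over RPL10 WT, and a minority were called. Of the 59 genes, 15 (25.4%) were called higher and 0 lower by limma at an adjusted p under 0.1, and 50 had a log2 fold change above 0, with a median of 0.31 and quartiles of 0.08 and 0.58. No gene was lower at an unadjusted p under 0.05 either, and edgeR and DESeq2 called 0 lower and 9 higher each. That is 15.3% of the 59, near the 14.7% of all genes called higher with either tool. By limma, over all 11133 genes tested, 14.5% were called higher and 15.8% lower, and the median log2 fold change was 0.003. With the replicate number as a block, 23 of the 59 were called higher and 1 lower, against 18.5% and 19.9% of all genes, and the median was 0.25. All 15 genes called without the block were also called with it, and the 9 called only with it were Nhp2, Nop2, Ncl, Utp20, Rrp9, Imp4, Ltv1 and Rrs1, all higher, and Polr1c, lower. In no gene of the 59 did the R98S and WT libraries separate completely, as they did for 3.53% of all genes tested.

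A single WT library stood high. The WT29 library of number 1 held the highest WT value for 55 of the 59 genes, and for 14 of the 15 called higher. Without it, 30 of the 59 were called higher, against 17.4% of all genes, although the groups still overlapped for all 59. The count also rose to 22 without WT28 number 1, to 21 without R98S35 number 2, to 17 without WT36 number 3 and to 16 without R98S35 number 3. These are 37.3%, 35.6%, 28.8% and 27.1%, against 15.1%, 15.6%, 14.4% and 13.2% of all genes. Leaving out other single libraries lowered the count to 6 without WT36 number 2, to 7 without R98S11 number 1, R98S13 number 1, WT29 number 2, WT28 number 3 or WT29 number 3, and to 8 without R98S35 number 1, R98S11 number 2, WT28 number 2 or R98S13 number 3. It was 10 without R98S11 number 3 and 14 without R98S13 number 2 (16.9% and 23.7%, against 12.7% and 15% of all genes). The counts of 6 to 8 are 10.2% to 13.6% of the 59, near the 12.1% to 13.5% of all genes called higher in the same fits. Over single libraries the median log2 fold change ran from 0.19 without WT36 number 2 to 0.42 without WT29 number 1. The count was 3 without number 2, 0 without number 3 and 21 without number 1 (5.08%, 0% and 35.6%, against 10.2%, 5.99% and 11.6% of all genes), and without a whole clone it ran from 2 (R98S11) to 19 (WT29), or 3.39% and 32.2% against 7.68% and 11.9% of all genes, while the median stayed above 0 in each of these fits. Of the 15 genes, 6 (Polr1e, Ebna1bp2, Noc3l, Gnl3, Utp18 and Ddx18) were called whichever single library was left out, Pno1 was lost only without WT36 number 2, and the other 8 were lost without any 1 of 8 to 12 libraries.

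Among 6 RNA polymerase I genes, 1 was called (16.7%, near the 14.5% of all genes called higher). Polr1e, which encodes a subunit of the polymerase (chr4:45018583-45036565, plus strand of GRCm38), ranged from 466 to 1266 normalised reads in R98S libraries with a median of 856, and from 218 to 844 in WT libraries with a median of 359. The 5 highest of the 9 R98S libraries were above every WT library. The log2 fold change of Polr1e was 1.15 ± 0.26 (SE, n = 9 and 8, limma adjusted p = 0.00442), and within numbers 1, 2 and 3 it was 0.75, 1.00 and 1.41. Ubtf, the activator that opens rRNA genes, lay between 2825 and 5068 in R98S libraries and between 2201 and 6037 in WT libraries, with a log2 fold change of -0.05 ± 0.17 whose sign turned under quantile normalization. Polr1c, a subunit shared by RNA polymerases I and III, was at a median of 1151 in R98S and 1348 in WT libraries, with 5 R98S libraries below every WT library. Its log2 fold change of -0.19 ± 0.09 was not called (limma adjusted p = 0.17), but it was with the block, at -0.21 ± 0.07 (limma adjusted p = 0.0439, 0.0282 to 0.448 over 39 alternatives).

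Modification factors were called in 1 of 4 H/ACA genes, 1 of 3 base modification genes and 0 of 3 box C/D genes. With 14.5% of all genes called higher, counts this small cannot be told from the background. Dkc1, the pseudouridine synthase of H/ACA particles (chrX:75095854-75109777, plus strand), ranged from 3102 to 5198 in R98S libraries with a median of 4415, and from 1347 to 5869 in WT libraries with a median of 2675. Of the 8 WT libraries, 3 reached into the R98S range, and the log2 fold change was 0.56 ± 0.22 (limma adjusted p = 0.0685). Nat10, which acetylates cytidines of 18S rRNA, had medians of 1717 in R98S and 1121 in WT libraries and a log2 fold change of 0.59 ± 0.25 (limma adjusted p = 0.0977). The box C/D scaffold proteins Nop56 and Nop58 were at log2 fold changes of 0.36 ± 0.26 and 0.30 ± 0.20, neither called, and both genes host small nucleolar RNAs in their introns. In Nop56, 19.96% of the 50-base windows of its exons also occur elsewhere in the annotated transcripts. Reads with several equal matches would have been lost at the mapping quality filter, so such a gene may be undercounted.

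Of the 5 multifunctional nucleolar proteins, only Ddx21 was called (20%, against 14.5% of all genes). Ddx21, an RNA helicase that acts in rRNA transcription and processing, had medians of 6884 in R98S and 3350 in WT libraries and a log2 fold change of 0.71 ± 0.29 (limma adjusted p = 0.0846). Its highest single value, 11012, was in a WT library. Ncl, which encodes nucleolin, ranged from 18918 to 45496 with a median of 35200 in R98S and from 16415 to 43375 with a median of 21063 in WT libraries. Its log2 fold change of 0.48 ± 0.21 missed the threshold (limma adjusted p = 0.102) and was called with the block, at 0.42 ± 0.15 (limma adjusted p = 0.0381, 0.0219 to 0.349 over the alternatives). Npm1, which encodes the abundant nucleolar chaperone nucleophosmin, was at medians of 30630 and 32563, with a log2 fold change of -0.16 ± 0.13 (limma adjusted p = 0.405). Npm1 was also the member with the highest WT level per transcript length, 20828 normalised reads per kilobase against 2910 for Ncl, although 40.9% of its exon windows recur in other transcripts.

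Small subunit factors were called in 3 of 16 processome genes (Utp18, Wdr75 and Heatr1) and in 2 of 6 pre-40S genes (Pno1 and Rrp12). The processome share of 18.8% was near the 14.5% of all genes called higher, and a count out of 6 is too small to set against it. Utp18 (chr11:93859243-93885766, minus strand) had a median of 992 in R98S and 533 in WT libraries, and 3 R98S libraries were above every WT library. Its log2 fold change was 0.73 ± 0.24 (limma adjusted p = 0.0382), and it was 0.28, 0.85 and 0.78 within the 3 numbers. Pno1, a chaperone of pre-40S particles (chr11:17203198-17211568, minus strand), lay between 602 and 1319 in R98S libraries (median 841) and between 309 and 1084 in WT libraries (median 436). Pno1 had a log2 fold change of 0.68 ± 0.24 (limma adjusted p = 0.0522). Rrp12 had a larger difference with a larger spread, 0.95 ± 0.39 (limma adjusted p = 0.0905), because its WT libraries ran from 212 to 2183 around a median of 434.

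The pre-60S factors held 6 of the 15 calls, out of 16 genes tested (37.5%, against 14.5% of all genes): Ebna1bp2, Gnl3, Noc3l, Bop1, Ddx18 and Wdr12. Ebna1bp2, which encodes a 60S assembly protein (chr4:118620799-118627776, plus strand), ranged from 1610 to 3598 in R98S libraries with a median of 2656, and from 902 to 2948 in WT libraries with a median of 1260. The difference was 0.82 ± 0.21 on the log2 scale (limma adjusted p = 0.0089). Gnl3, the nucleolar GTPase nucleostemin (chr14:31012433-31019152, minus strand), had medians of 3196 and 1533 and a log2 fold change of 0.85 ± 0.26 (limma adjusted p = 0.024). Noc3l, a partner of Noc2l in pre-60S transport (chr19:38788128-38819237, minus strand), had medians of 1182 and 721 and a log2 fold change of 0.61 ± 0.18 (limma adjusted p = 0.0181). Bop1, which acts with Pes1 and Wdr12 in the PeBoW complex for 28S and 5.8S rRNA processing, had medians of 2343 and 995 and a log2 fold change of 0.82 ± 0.32 (limma adjusted p = 0.0735). Its partner Pes1 was at 0.05 ± 0.16 and was not called, and 21.0% of its exon windows recur elsewhere. For Ddx18, at 0.60 ± 0.20 (limma adjusted p = 0.040), that share was 62.7%, so its level is uncertain. Noc2l, not called at 0.26 ± 0.20, overlaps an opposite-strand gene over 20.9% of its exons, and reads of the pair can be told apart only if strand was used in counting.

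**Figure D2:**
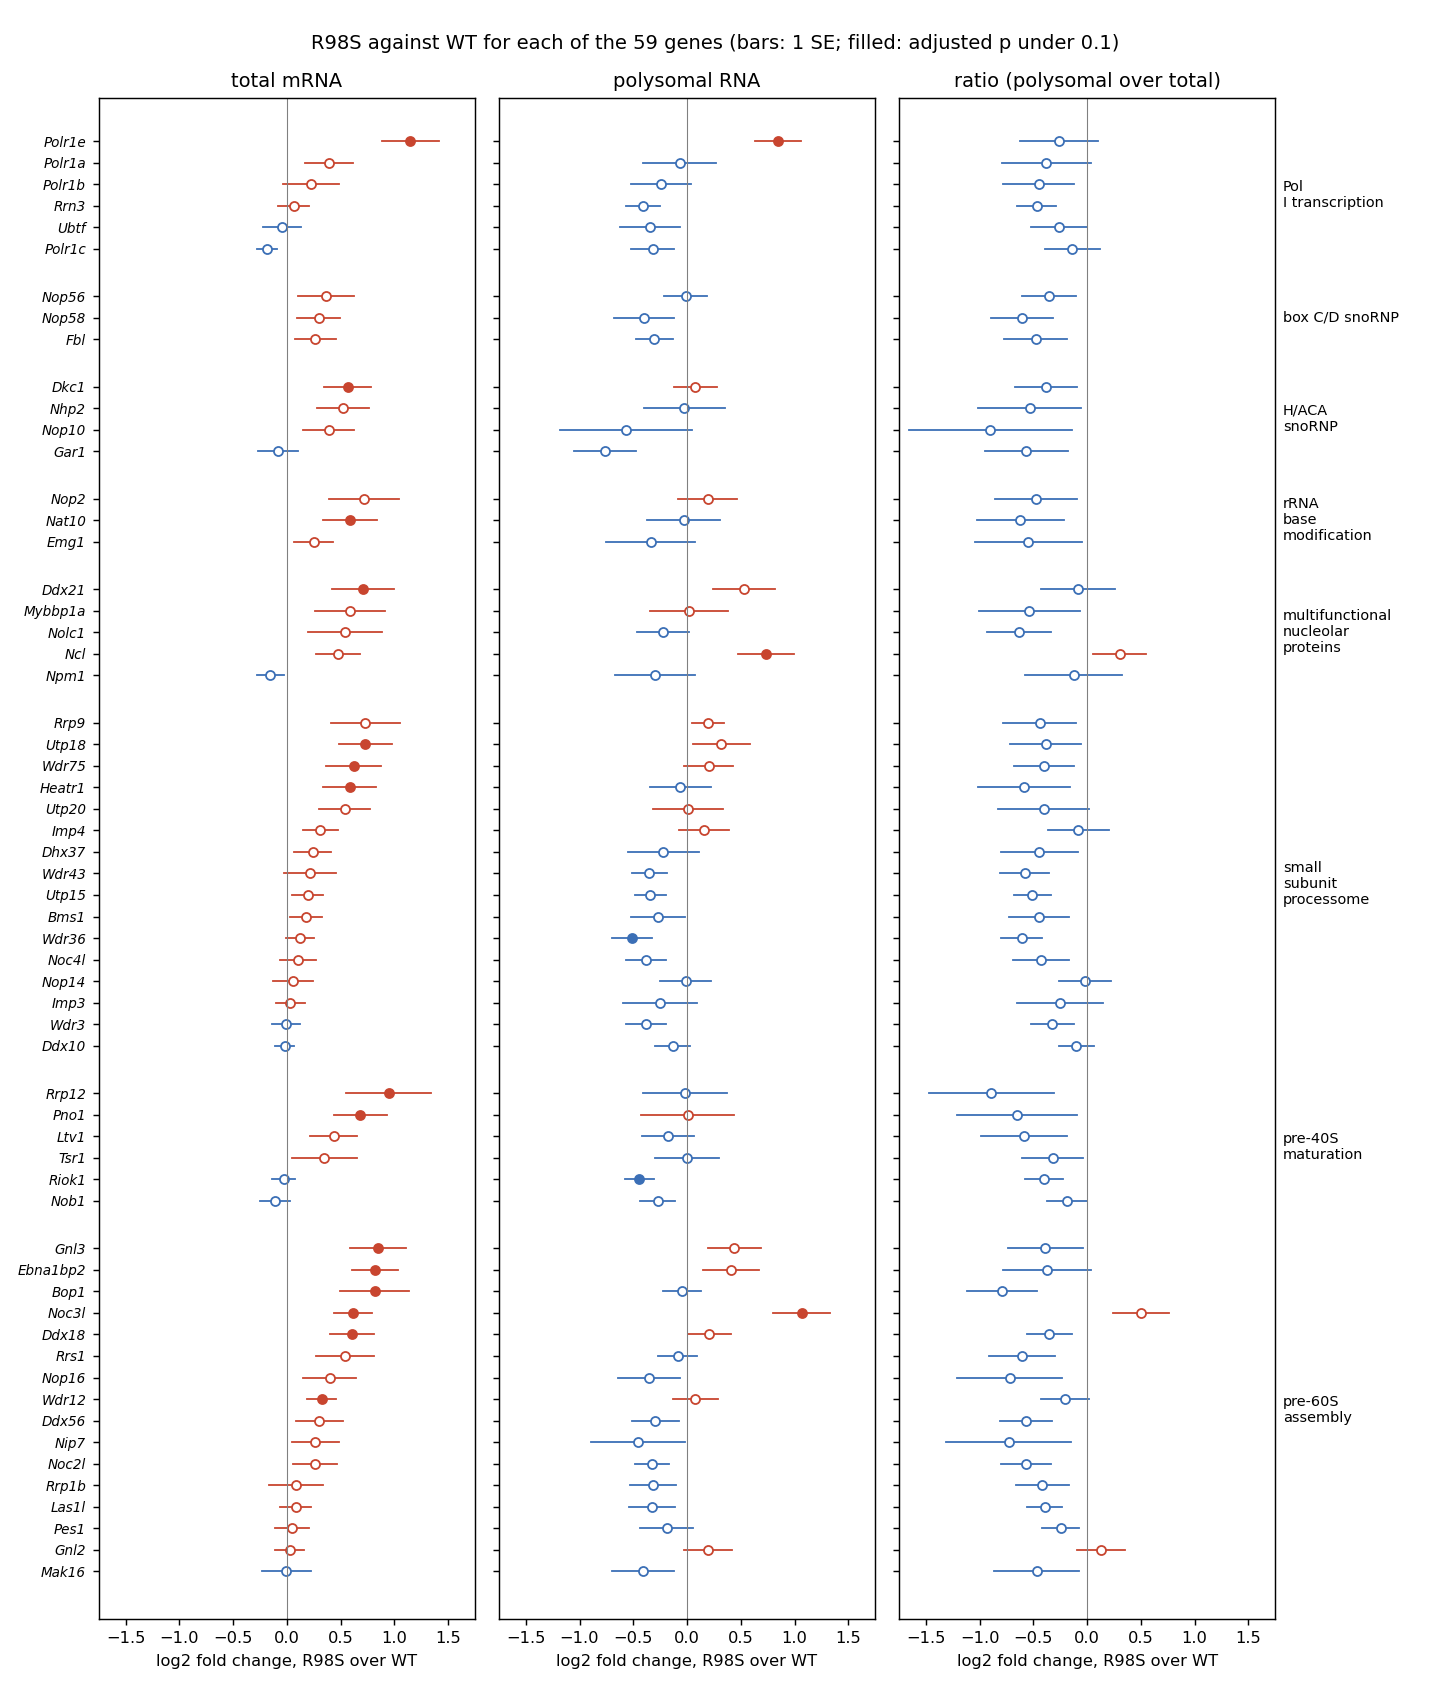
Log2 fold change of RPL10 R98S over RPL10 WT for each of the 59 genes (x axis) grouped by role (y axis), in total mRNA, polysomal RNA and the per-culture ratio, with bars of 1 SE and filled points for genes called at an adjusted p under 0.1. In total mRNA 50 points lie above 0 and 15 are filled, in polysomal RNA 18 lie above 0 and 5 are filled, and in the ratio 3 lie above 0 and 0 are filled.

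The promoters of the genes were searched for the E-box CACGTG, the sequence that MYC and MAX bind, since genes of this program are known MYC targets. The window ran from 250 bases before to 50 bases after the start site in RefSeq on GRCm38.p6, and CACGTG reads the same on both strands. Windows were at hand for 51 of the 59 genes, and 11 of them (21.6%) held the motif, against 8.09% of 27025 genes with a window and 11.8% of the 8243 of those that were tested in the comparisons. In 4 of the 11 genes the motif began before the start site. A match describes the sequence and not binding. The 4 with the motif before the start site, and Pno1, which was called higher and holds it after the start, are shown 5′ to 3′ on the strand of the gene with the E-box in capitals.

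Imp4, chr1:34439696-34439725 (+), log2 fold change in total mRNA 0.31, not called: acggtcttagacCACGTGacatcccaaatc
Nop2, chr6:125131811-125131840 (+), 0.72, not called: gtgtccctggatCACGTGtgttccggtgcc
Utp18, chr11:93885769-93885798 (-), 0.73, called: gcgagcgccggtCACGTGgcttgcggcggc
Rrn3, chr16:13780472-13780501 (+), 0.06, not called: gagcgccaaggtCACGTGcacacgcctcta
Pno1, chr11:17211540-17211569 (-), 0.68, called: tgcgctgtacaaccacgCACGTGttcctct

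The difference between genes with and without the motif was not tested. Among the 11 genes with it, 2 were called higher in total mRNA and the median log2 fold change was 0.43, and among the 40 without it, 11 were called higher and the median was 0.30. In the ratio the medians were -0.47 and -0.40. Rrn3, the initiation factor of RNA polymerase I, held 2 copies and had a log2 fold change in total mRNA of 0.06 ± 0.15.

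In polysomal RNA most of the same genes were not higher in RPL10 R98S cells. The median log2 fold change of the 59 was -0.18, with 18 genes above 0, and limma called 3 higher (Polr1e, Noc3l and Ncl) and 2 lower (Wdr36 and Riok1). Of the 10707 genes tested, 7.66% were called higher and 5.87% lower, with a median of -0.021. Polr1e and Noc3l were the 2 genes called in both kinds of library, and the share of all genes called in both is not given here. Of the 59 genes, 32 had a log2 fold change above 0 in total mRNA and below 0 in polysomal RNA. The total mRNA fold changes also draw on libraries without a polysomal partner. The groups did not separate completely for any of the 59, whereas they did for 4.96% of all genes tested.

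Polr1e ranged from 945 to 2064 normalised reads in the 8 R98S polysomal libraries with a median of 1312, and from 560 to 1208 in the 6 WT libraries with a median of 659. Of the R98S libraries, 6 were above every WT library, and the log2 fold change was 0.85 ± 0.21 (limma adjusted p = 0.0179). Noc3l ranged from 506 to 902 with a median of 850 in R98S and from 230 to 652 with a median of 277 in WT libraries. The 3 R98S libraries of number 3 lay below the WT29 libraries of numbers 1 and 2, but within number 3 they were at 506, 617 and 552 against 230, 265 and 288. The log2 fold change of Noc3l was 1.07 ± 0.27 (limma adjusted p = 0.0176). Ncl ranged from 18648 to 41382 with a median of 29899 in R98S and from 9433 to 25594 with a median of 17913 in WT libraries (chr1:86344719-86359400, minus strand). For Ncl the log2 fold change was 0.73 ± 0.26 (limma adjusted p = 0.0933).

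Of the 2 genes called lower, Riok1, a kinase of late 40S maturation (chr13:38036995-38061433, plus strand), ranged from 533 to 769 in R98S polysomal libraries with a median of 565, and from 641 to 902 in WT libraries with a median of 816. Wdr36, a processome protein, ranged from 1110 to 2236 with a median of 1209 in R98S and from 1359 to 2471 with a median of 1892 in WT libraries. In both genes 7 of 8 R98S libraries were below every WT library, and the exception was R98S13 of number 3. Riok1 fell by 0.44 ± 0.13 on the log2 scale (limma adjusted p = 0.0474), and Wdr36 fell by 0.51 ± 0.18 (limma adjusted p = 0.0973). In total mRNA the same genes were at -0.03 ± 0.11 and 0.12 ± 0.13.

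Polr1e and Noc3l were called in polysomal RNA whichever single library was left out, and Riok1 was lost only without WT36 number 3. Ncl was lost without any 1 of 8 libraries and Wdr36 without any 1 of 11. The number called lower was 0 without WT36 number 3 and 4 without R98S13 number 3, and it was 3 without WT28 number 2 or WT29 number 3. Over all genes 5.87% were called lower with every library included, and the share in the leave-out fits is not given here.

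With the replicate number as a block the polysomal calls rose to 6 higher (10.2%) and 10 lower, against 15.2% and 15.7% of all genes. Together the calls were 27.1% of the 59, below the 30.9% of all genes, and the median was -0.12. The 6 higher were Polr1e, Noc3l and Ncl with Gnl3 (0.50 ± 0.16), Ebna1bp2 (0.51 ± 0.14) and Ddx21 (0.42 ± 0.16). All 6 were also called higher in total mRNA with the block, and the share of all genes called higher in both is not given here. The 10 lower were Wdr36 and Riok1 with Gar1 (-0.64 ± 0.17), Ubtf (-0.45 ± 0.13), Rrn3 (-0.42 ± 0.15), Rrp1b, Las1l, Wdr43, Noc2l and Utp15. Gar1, a small core protein of H/ACA particles, had medians of 1304 in R98S and 2630 in WT polysomal libraries against 969 and 943 in total mRNA. Without the block its polysomal log2 fold change of -0.76 ± 0.29 was not called (limma adjusted p = 0.122).

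**Figure D3:**
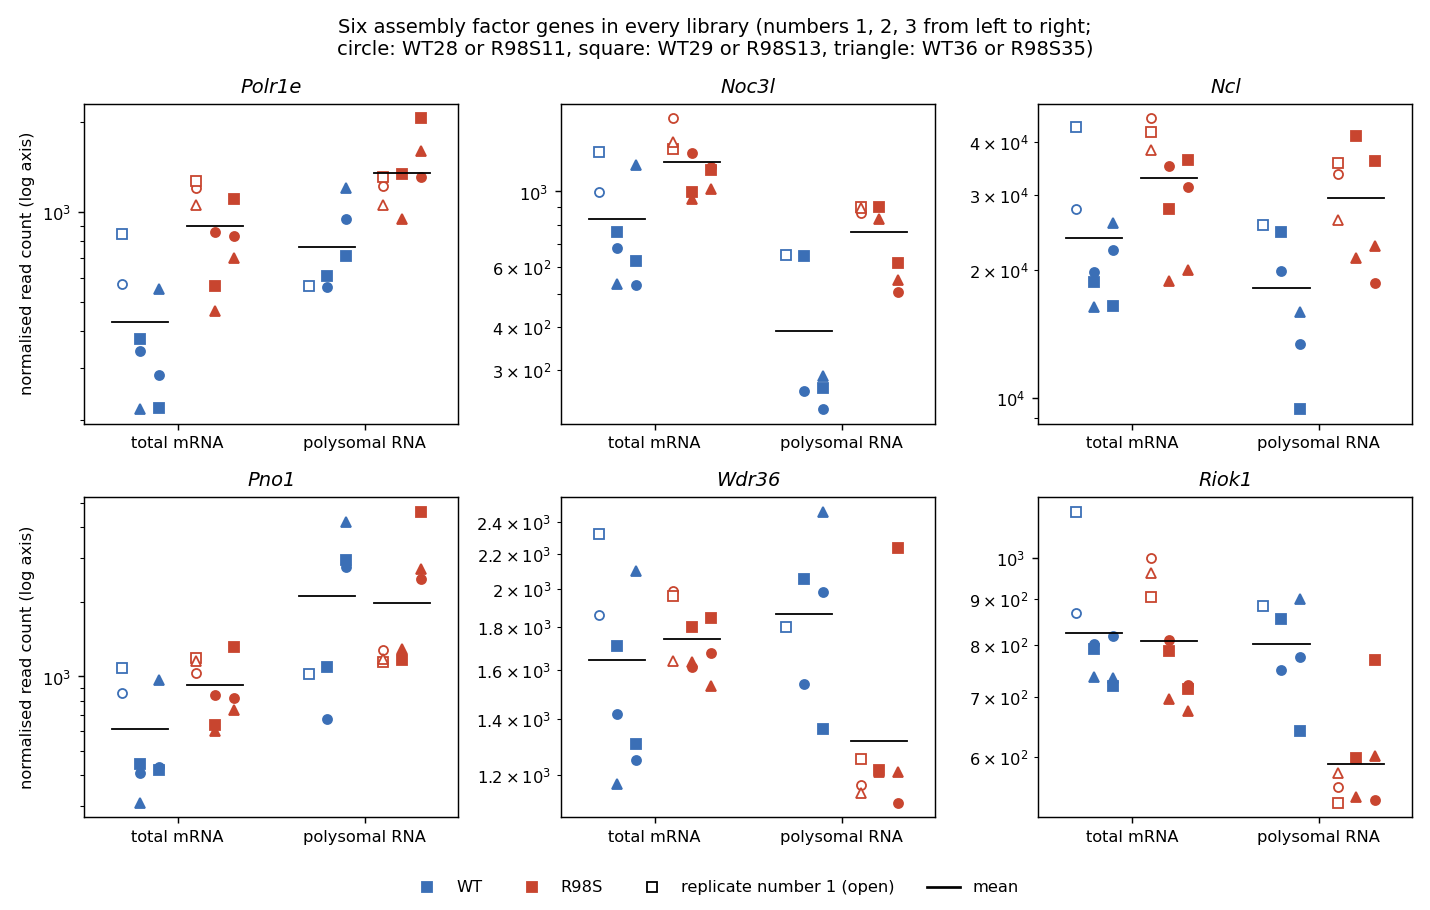
Normalised read counts on a log axis (y axis) of Polr1e, Noc3l, Ncl, Pno1, Wdr36 and Riok1 in total and polysomal libraries of RPL10 WT and RPL10 R98S cells (x axis), with shapes for clones and open symbols for replicate number 1. Polr1e had 5 of 9 R98S libraries above every WT library in total mRNA and 6 of 8 in polysomal RNA, and for Wdr36 and Riok1 7 of 8 polysomal R98S libraries lay below every WT library.

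In the per-culture ratio, log2 of polysomal over total value in the same culture, the median log2 fold change of the 59 genes was -0.43 with quartiles of -0.57 and -0.29, against 0.006 for all genes tested. Only Noc3l (0.50 ± 0.26), Ncl (0.30 ± 0.25) and Gnl2 (0.13 ± 0.22) were above 0. No single gene was called: limma, edgeR and DESeq2 each gave 0 calls among the 59, and limma called 0.0471% of the 10623 genes tested. At an unadjusted p under 0.05, 10 of the 59 genes were lower and 0 higher (16.9%), against 6.47% of all genes in either direction. A total of 47 of the 59 genes had a log2 fold change above 0 in total mRNA and below 0 in the ratio, a combination found in 28.2% of the 10620 genes in both tests. This is the pattern that the comparison set out to look at, so the count describes it and does not stand as independent evidence. The total value enters the ratio with a negative sign, so a high total value in a culture by itself lowers the ratio there. The total fold changes also use libraries without a polysomal partner, among them WT36 number 2, which do not enter the ratio. Without WT36 number 2 the median in total mRNA was 0.19.

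Wdr36 had the smallest p among the 59 genes in the ratio. Its log2 ratio was -0.77, -0.64 and -0.52 in the R98S cultures of number 1, -0.56 and -0.43 in those of number 2, and -0.59, 0.28 and -0.34 in those of number 3. In WT it was -0.37 in number 1, 0.12 and 0.27 in number 2, and 0.66, 0.06 and 0.23 in number 3. Of the R98S cultures, 6 of 8 were below every WT culture. The log2 fold change was -0.61 ± 0.19 (limma unadjusted p = 0.00517, adjusted p = 0.545).

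Bop1 was at -0.79 ± 0.33 (limma adjusted p = 0.689), and its ratio was lowest in the WT29 culture of number 1, at -0.54, although the other WT cultures were at 0.88 to 1.78. Its R98S cultures ran from -0.43 to 0.95. Nop10, the smallest H/ACA core protein, had the most negative value of the 59, -0.90 ± 0.76, with R98S cultures between -0.58 and 2.35 and WT cultures between -0.87 and 3.63. The number 3 cultures of Nop10 lay above all others in both genotypes, at 1.95 to 2.35 and at 2.53 to 3.63. In bulk libraries, a shift in every cell and a shift in the share of cells cannot be told apart for any of these genes.

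With the replicate number as a block the median in the ratio was -0.26, with 7 genes above 0 and 0 called, against 0.433% of all genes. In that fit 12 of the 59 were lower and 2 higher at an unadjusted p under 0.05. Together these are 23.7%, against 12.04% of all genes in either direction. The smallest limma adjusted p among the 59 was 0.158, for Utp15 at -0.42 ± 0.11 (0.102 to 1.00 over the alternatives). In means over clones, 3 against 3, the median was -0.43. These means are not balanced for number, since each R98S clone had a number 1 culture in the ratio but only WT29 among the WT clones. With the block the median moved to -0.46 without WT29 of number 1 and to -0.10 without number 3. In no gene of the 59 did the R98S and WT cultures separate in the ratio, as they did in 0.169% of all genes tested.

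The median ratio difference of the 59 genes had opposite signs in number 1 and in numbers 2 and 3. Within number 1, where 3 R98S cultures met the single WT29 culture, the median of the 59 was 0.24 with 46 genes above 0. Within numbers 2 and 3 it was -0.39 and -0.31, with 9 and 7 genes above 0. In total mRNA the corresponding medians were -0.06, 0.47 and 0.37, with 19, 53 and 50 genes above 0. In these, 0, 8 and 6 of the 59 were called higher (0, 13.6% and 10.2%), against 4.16%, 3.01% and 8.13% of all genes, so that the share in number 3 was near the background. Polr1e, Utp18, Bop1, Gnl3 and Ebna1bp2 were called higher within both numbers 2 and 3. The share of all genes called higher in both numbers is not given here. In polysomal RNA the medians were -0.02, -0.27 and -0.02, the last turning to 0.04 with quantile normalization.

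Of the 59 genes, 45 had a lower ratio in R98S in both numbers 2 and 3, and 12 of these also in number 1. A total value higher in R98S in numbers 2 and 3 was seen for 48, and in all 3 numbers for 19. Within number 3, Bop1 fell by 1.08 (limma adjusted p = 0.0805) and Ltv1, a pre-40S export factor, by 0.87 in the ratio, the only ratio calls within a number among the 59, where 0.923% of all genes were called lower within number 3. The genotype by number interaction had 13 of the 59 genes (22.0%) at an unadjusted p under 0.05 in the ratio, against 13.8% of all genes, and none at an adjusted p under 0.1 (limma, smallest adjusted p = 0.215). In total and polysomal RNA 1 and 3 of the 59 (1.69% and 5.08%) were under 0.05, against 4.31% and 5.56% of all genes, and again none was called.

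Number 1 stood apart in both genotypes in the ratio, while in total mRNA it was high but overlapped the other numbers. The median deviation of the 59 genes in total mRNA was 0.29 to 0.74 in the 5 libraries of number 1 and -0.89 to 0.33 in the other 12. In the ratio it was -0.77 to -0.50 in the 4 cultures of number 1 and -0.26 to 0.61 in the other 10. Number 1 supplied 3 of 8 R98S cultures but 1 of 6 WT cultures to the ratio. The R98S13 cultures of numbers 1 and 2 were at -0.50 and 0.06 in the ratio, although their polysomal libraries were nearly alike. Without the WT29 culture of number 1 the median of the ratio was -0.60, and Bop1 (-1.11 ± 0.25) and Wdr43 (-0.78 ± 0.19) were called lower by limma, at adjusted p of 0.0828 and 0.0945. In that fit 0.48% of all genes were called lower, and the calls over all genes in either direction went from 5 to 109. What set number 1 apart was not tested.

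**Figure D4:**
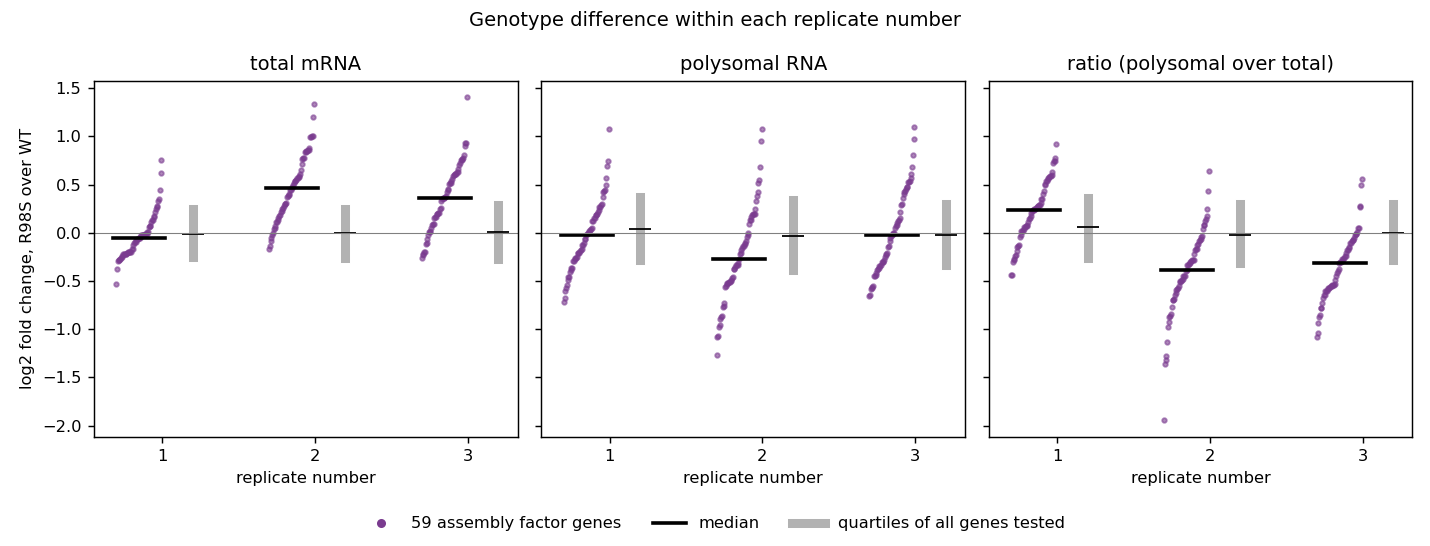
Log2 fold change of RPL10 R98S over RPL10 WT of the 59 genes (y axis) within replicate numbers 1, 2 and 3 (x axis), in total mRNA, polysomal RNA and the per-culture ratio, with 1 point per gene in order of value, black lines for medians and grey bars for the quartiles of all genes tested. The medians for total mRNA were -0.06, 0.47 and 0.37, those for polysomal RNA -0.02, -0.27 and -0.02 (the last 0.04 with quantile normalization), and those for the ratio 0.24, -0.39 and -0.31.

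The level of the ratio itself varied more between the genes than between the genotypes. Since each table was scaled on its own, a log2 ratio is relative to the average gene. In WT cultures the 59 genes had a median log2 ratio of 0.29, which is at percentile 76.6 of all genes (median -0.32), and in R98S cultures it was -0.13, at percentile 57.9 (median of all genes -0.27). Cytosolic ribosomal protein genes were at -0.02 in WT and 0.02 in R98S cultures. In WT cultures the lowest ratios were those of Polr1a (-2.42), Utp20 (-2.42), Heatr1 (-2.14) and Mybbp1a (-1.82), and the highest those of Nop10 (1.67), Pno1 (1.59), Nip7 (1.55) and Nop16 (1.55).

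The genes at the low end have long transcripts and those at the high end short ones. Spearman's rho between the ratio level and transcript length was -0.63 in WT and -0.62 in R98S cultures over the 59 genes, and -0.54 and -0.56 over 10122 genes with a length, all from the same libraries. Over all genes it was -0.05 in the WT29 culture of number 1, -0.40 to -0.25 in the R98S cultures of number 1, -0.44 to -0.20 in number 2 and -0.61 to -0.54 in number 3. Spearman's rho between the log2 fold change of the ratio and length was 0.11 over the 59 genes and 0.21 over all genes, and with the block -0.09 and -0.03. Within numbers 1, 2 and 3 it was -0.27, -0.19 and 0.28 over the 59 genes and -0.32, 0.05 and 0.09 over all genes. The 29 shorter genes (924 to 3036 bases) and the 30 longer ones (3128 to 10012 bases) had median log2 fold changes of the ratio of -0.44 and -0.41, and within numbers 1, 2 and 3 of 0.28 and 0.08, -0.39 and -0.41, and -0.44 and -0.28. The part of length in the ratio results was not tested.

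Other genes of ribosome production gave a mixed picture. In a list of 74 further assembly factors, 13 (17.6%, near the 14.5% of all genes) were called higher and 1 lower (Nsa2, -0.27) in total mRNA, with a median of 0.26. In polysomal RNA 0 were higher and 1 lower, with a median of -0.11, and in the ratio none was called, with a median of -0.33. With the block 25 (33.8%) were higher and 1 lower in total mRNA, where 18.5% of all genes were higher. In polysomal RNA the block gave 8 higher and 6 lower, shares below the 15.2% and 15.7% of all genes. Tex10, which acts in pre-60S release from the nucleolus, ranged from 1000 to 2010 in R98S total libraries and from 685 to 1117 in WT, with a log2 fold change of 0.79 ± 0.13 (limma adjusted p = 0.000280). Nol6, a processome protein, was at 1.12 ± 0.30 (limma adjusted p = 0.0120). The 81 cytosolic ribosomal protein genes had 6 called higher and 4 lower in total mRNA, with a median of -0.04, and 0 by limma in polysomal RNA (1 at an unadjusted p under 0.05, 0 with edgeR and 1 with DESeq2), where the block gave 17 higher (21.0%, against 15.2% of all genes) and 0 lower. In total mRNA the block gave 7 higher and 7 lower, shares below those of all genes. In the ratio their median was 0.04, and with the block 0.24, with 81 of 81 above 0 and 0 called. Within numbers 1, 2 and 3 their ratio medians were 0.58, 0.24 and 0.08.

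Of 10 tested genes of the Myc network, 1 was called higher and 2 lower in total mRNA, and 2 and 4 with the block. Over all genes 14.5% were higher and 15.8% lower, and 18.5% and 19.9% with the block, so counts this small out of 10 cannot be told from the background. Max, the dimer partner of MYC, lay between 1727 and 3426 in R98S libraries and between 1209 and 2140 in WT libraries, with a log2 fold change of 0.79 ± 0.15 (limma adjusted p = 0.000859). Mxd3, which encodes an antagonist that also pairs with MAX, fell by 1.19 ± 0.23 (limma adjusted p = 0.00116), and Mycn fell by 1.10 ± 0.28 (limma adjusted p = 0.00907). Myc itself ranged from 5506 to 14059 with a median of 7433 in R98S and from 6413 to 15830 with a median of 10731 in WT total libraries. Its log2 fold change of -0.43 ± 0.20 was not called (limma adjusted p = 0.123), and with the block it was called at -0.41 ± 0.11 (limma adjusted p = 0.0111).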

How the data were processed

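Total mRNA and mRNA from polysome fractions of Ba/F3 lines were sequenced from stranded, poly(A)-selected libraries. Per the study's methods and processing notes, reads were trimmed, Bowtie2 was used to discard those matching rRNA or tRNA, the remainder were aligned to mm10 (GRCm38) with TopHat2 2.0.11, a mapping quality filter was applied, and the remaining reads were counted over exons (HTSeq is named). Counts were divided by DESeq2 size factors. The annotation and the strand setting of the counting are not given in the sources used here. The deposited values are these normalised signals, 1 table per fraction, scaled separately. Within 0.01 reads they are whole multiples of what 1 read is worth, which gave the read totals.

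limma 3.58.1 (R 4.3.3, variance trend, two-sided) was run on log2(value + 1) for genes whose mean value reached 10, with genotype as the only term, Benjamini-Hochberg adjustment over all genes tested and calls at adjusted p under 0.1. Fold changes are on that log2(value + 1) scale, and ± is 1 SE. The ratio used the 14 cultures with both libraries. edgeR 4.0.16 and DESeq2 1.42.0 were run on the recovered reads, and the fitting functions were tested on simulated data. Other alternatives were TMM and quantile scaling, a pseudocount of 5, no filter or a mean of at least 100, clone means, a replicate block with and without a GC term, and leaving out libraries, clones and numbers in turn.

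Same-numbered libraries of different clones deviated together from their group means in each number (correlation 0.48 to 0.62 in total mRNA, 0.67 to 0.87 in polysomal RNA and 0.54 to 0.81 in the ratio), so the numbers were taken as pairing from the data. Nothing in the labels says what a number shares, and polysomal numbers 1 and 2 also deviated together (0.77). Replicates are repeat cultures of 3 clones per genotype, so p-values measure spread between cultures more than between clones.

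The genes and lists were chosen with earlier results of these data known. Values over libraries are given for the member with the highest WT total level and those with the smallest p in total mRNA and in the ratio in each role, members called against most others, the largest and smallest fold changes, up to 3 genes of each other list, and Myc. Further members were named after their values were seen. Gene positions, lengths, overlaps and recurring 50-base windows came from GENCODE M21 (GRCm38), in which 36832 symbols had a unique entry.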

Additional observations from a re-analysis of the deposited data

Results flagged for a closer look

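In 8 of 156 groups of libraries or cultures checked, 1 value stood far from the rest by Dixon's criterion, which chance alone gives in about 1 of 20 groups. All 8 came from the WT29 culture of number 1 or the R98S13 culture of number 3. In total mRNA of WT cells, the WT29 library of number 1 had 48367 normalised reads of Npm1, against 28450 to 35806 in the others, and 1127 of Riok1, against 720 to 870. In the ratio, the same WT29 culture had a members' median deviation of -0.77, against 0.13 to 0.61 in the other WT cultures, and a log2 ratio of Wdr43 of -0.49, against 0.40 to 0.78.

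In polysomal RNA of R98S cells, the R98S13 library of number 3 had 3516 normalised reads of Utp18 (others 1154 to 1932), 2236 of Wdr36 (others 1110 to 1254) and 769 of Riok1 (others 533 to 600). Its log2 ratio of Wdr36 was 0.28, against -0.77 to -0.34 in the other R98S cultures. What set these libraries apart was not tested.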

How the results depend on the processing

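Over the alternatives, the median log2 fold change of the 59 genes ran from 0.19 to 0.45 in total mRNA. It ran from -0.30 to -0.06 in polysomal RNA and from -0.60 to -0.26 in the ratio. The shifts stayed below the spread between cultures of 1 genotype and number, an SD of 0.32, 0.27 and 0.20 respectively. In total and polysomal RNA this spread exceeded the size of the medians themselves (0.31 and -0.18), so a median of 0 would also have passed. The polysomal median within number 3, near 0, changed sign within that spread, from -0.018 to 0.038 with quantile normalization. With the replicate block the ratio median ran from -0.46, without number 1 or without WT29 of number 1, to -0.10 without number 3. Counts of calls depended on the setting, and the cause was not tested. The number of genes called higher in total mRNA, 15 in the report, was 9 with DESeq2 or edgeR, 7 with no filter, 5 with only the libraries that have a polysomal partner, and 25 with clone means. With clone means that is 42.4% of the 59, against 13.2% of all genes, where the mean of WT36 held no number 1 library. A share of all genes is not given here for the counts of 7 and 5, so they cannot be set against the background. The number called higher was 23 with the replicate block, also with a GC correction or TMM scaling, and 26 with the block and quantile normalization, and 1, 1, 1 and 2 genes were then called lower. Leaving out numbers, clones or libraries gave 0 to 30 higher and 0 to 1 lower.

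In polysomal RNA, 3 genes higher became 1 with clone means, 6 with the block, 7 with a GC term added, 6 with TMM and 8 with quantile normalization added. The 2 lower became 5 with DESeq2, 1 with clone means, edgeR, a mean of at least 100 or no filter, 10 with the block, and 14, 13 and 6 with the 3 additions. Over leave-outs 1 to 3 were higher and 0 to 7 lower. In either direction, limma without the block called 8.47% of the 59, DESeq2 13.6% and edgeR 5.08%. The shares of all genes were 13.5%, 17.8% and 13.5%. With clone means and with the block 3.39% and 27.1% of the 59 were called, against 7.01% and 30.9% of all genes. Each of these shares was below that of all genes, and shares in the other settings are not given here. Of all genes, 1449 were called in polysomal RNA, and 751 with clone means, 925 at a mean of at least 100, 3307 with the block, and 3839, 3360 and 3272 with the additions (608 to 2037 over leave-outs). In total mRNA 3369 genes were called (1338 to 3878 over leave-outs). In the ratio 5 were called, and 37 with DESeq2, 2 with TMM, 0 with clone means, 1 with edgeR, a mean of at least 100 or a pseudocount of 5, 3 with no filter or quantile normalization, 46 with the block, and 112, 47 and 45 with the additions (0 to 109 over leave-outs, with 0 to 2 of the 59 lower). The block with TMM or quantile scaling was chosen after seeing the data.

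For the named genes, 2425 of 2725 values kept direction and side of the threshold, 138 lost a call, 81 gained one and 81, in 12 genes, changed sign without a call. The block changed no other call in the report than those given there. All 59 genes had a mean of at least 100 normalised reads in both tables, the lowest single value being 82.7, for Rrp12 in the polysomal WT29 library of number 3. The part of depth in the calls was not tested.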
